A study of Homo sapiens with 6 samples.

Results

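The genes described here make the short nuclear and cytoplasmic RNAs of MCF10A cells: 7SK, the spliceosomal small nuclear RNAs (snRNAs), the small nucleolar and Cajal body RNAs (snoRNAs and scaRNAs), the 7SL and Y RNAs and a vault RNA. They were chosen by their annotation and their level: a gene was taken when Gencode gives it the type misc_RNA, snRNA, snoRNA or scaRNA and its mean over the 6 samples was at least 50 normalized counts. Of 19198 genes in the table, 251 had one of these 4 types and 58 reached that level, namely 15 misc_RNA, 12 snRNA, 25 snoRNA and 6 scaRNA genes. The genes nearest the limit were SCARNA1 just outside, with a mean of 49.5 normalized counts, and SNORA26 just inside, with 53.42.

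MCF10A is a non-tumorigenic human mammary epithelial cell line. Total RNA was depleted of ribosomal RNA and sequenced from 3 samples grown with growth factors (supplemented samples: 5% horse serum, 10 µg/ml human insulin, 20 ng/ml EGF, 100 ng/ml cholera toxin and 0.5 µg/ml hydrocortisone) and from 3 samples without them (depleted samples), which kept only the 5% horse serum. By the labels both media also held antibiotics and glutamine, all samples came from the same line, and the labels do not give the time without growth factors. The methods of the study name glutamine for the supplemented medium but not for the depleted one. The comparison asks what changes when the supplements are withdrawn, and because both EGF and the other 3 supplements were left out together, their separate parts cannot be told apart.

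These RNAs work as the guides and scaffolds of ribonucleoproteins. U4, U5 and U6 are among the snRNAs of the major spliceosome, and U4atac and U6atac replace U4 and U6 in the minor spliceosome. 7SK holds the elongation kinase P-TEFb in an inactive complex. C/D and H/ACA snoRNAs guide the methylation and pseudouridylation of ribosomal RNA, and scaRNAs do the same for snRNAs. 7SL is the scaffold of the signal recognition particle, and Y RNAs bind the Ro60 protein. Most human snRNA, 7SK, 7SL and Y RNA genes have their own promoters, whereas most snoRNAs and scaRNAs are cut out of the introns of host genes.

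The 6 libraries held 7472418 to 28672630 reads on genes, so that 3 reads corresponded to 1.76 to 6.71 normalized counts. Such floors, and the interval of the RNY4 read ratio, cover counting error only, while the limma intervals come from the spread between samples. Nothing in the labels says whether the 3 samples of a group were separate cultures, so p-values measure the spread between these samples, which may be technical. The keratins KRT8 and KRT18 and EPCAM were detected in every sample, as were the basal genes KRT5, KRT17 and TP63, while PGR was not among the genes of the table, so the label of luminal ductal cells was only partly matched. TP63 (271 to 1615 normalized counts with, 8.24 to 64.9 without growth factors), KRT19 (111 to 214 with, 25.6 to 30.2 without) and ESR1 (63.9 to 206 with, 4.58 to 32.8 without) were lower in every depleted sample. The basal gene KRT17 went the other way, at 5882 to 16142 with and 19236 to 123480 without, and was higher in every depleted sample. The summed lists overlapped between groups, at 6246 to 17327 with and 17294 to 31466 without for 6 luminal genes. For 5 basal genes the sums were 39630 to 63105 with and 28925 to 151313 without. The summed normalized counts of 4 mesenchymal markers were 3763 to 11167 with and 108685 to 186008 without growth factors, so markers moved with the groups, and their part in the differences was not tested. In RNA from whole cultures, fewer cells of a type and less RNA per cell cannot be told apart.

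The main difference between the groups was a higher level of part of the spliceosomal snRNAs and Y RNAs of the set without growth factors, with 7SK itself hardly different on average. Limma called 5 of 10 major snRNA, 1 of 2 minor snRNA and 3 of 6 Y RNA genes higher, and edgeR 4, 1 and 1. The set held no U2, U11 or U12 gene and no U1 gene but variants, and its only U6 gene, RNU6-2, overlapped between groups. By limma, 13 of the 58 genes were called higher and 2 lower without growth factors (Benjamini-Hochberg adjusted p under 0.05 over all 16988 genes tested and at least a 2-fold difference), that is 25.9% of the 58 against 6.33% of all genes, which split into 4.36% called higher and 1.97% called lower. All 3 samples without growth factors lay above all 3 with them in 27 of the 58 genes (46.6%), against 13.5% of all genes, and below them in 4 (6.9%), against 12.1% of all genes. The median log2 fold change of the 58 was 1.29, against -0.03 for all genes tested.

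These counts are a description, since the mean that selected the genes includes the group in which a gene is high. A mean of at least 50 was reached in both groups by 39 genes, only without growth factors by 16 and only with them by 3. Among the 39, 7 were called higher and 0 lower by limma, with a median log2 fold change of 0.95. In the 89 genes of the same 4 types with means of 10 to 50, 3 were called higher (VTRNA1-1, SNORA46 and RNVU1-2A, read from the results and outside the rule for named genes) and 0 lower, with a median of 0.22. Of all genes tested 4.36% were called higher and 1.97% lower, so these 89 showed no excess of calls. The call also depended on single libraries, from 5 genes called without replicate 3 of the depleted group and 9 without its replicate 2 to 18 without replicate 1 of the supplemented group. The 5 genes called in the full comparison and with any one sample left out were RNU5A-1, RNU5B-1, RNY4, SNORA53 and ENSG00000201592. RNVU1-31, RNU6ATAC and SNORA54 lost the call only without replicate 3 of the depleted group, SNORA74B without its replicate 2 or 3, RNU5E-1 without any one sample of that group, RN7SL674P without its replicate 1 or 3 or supplemented replicate 1, and ENSG00000201882 without its replicate 2 or 3 or supplemented replicate 1.

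**Figure D1:**
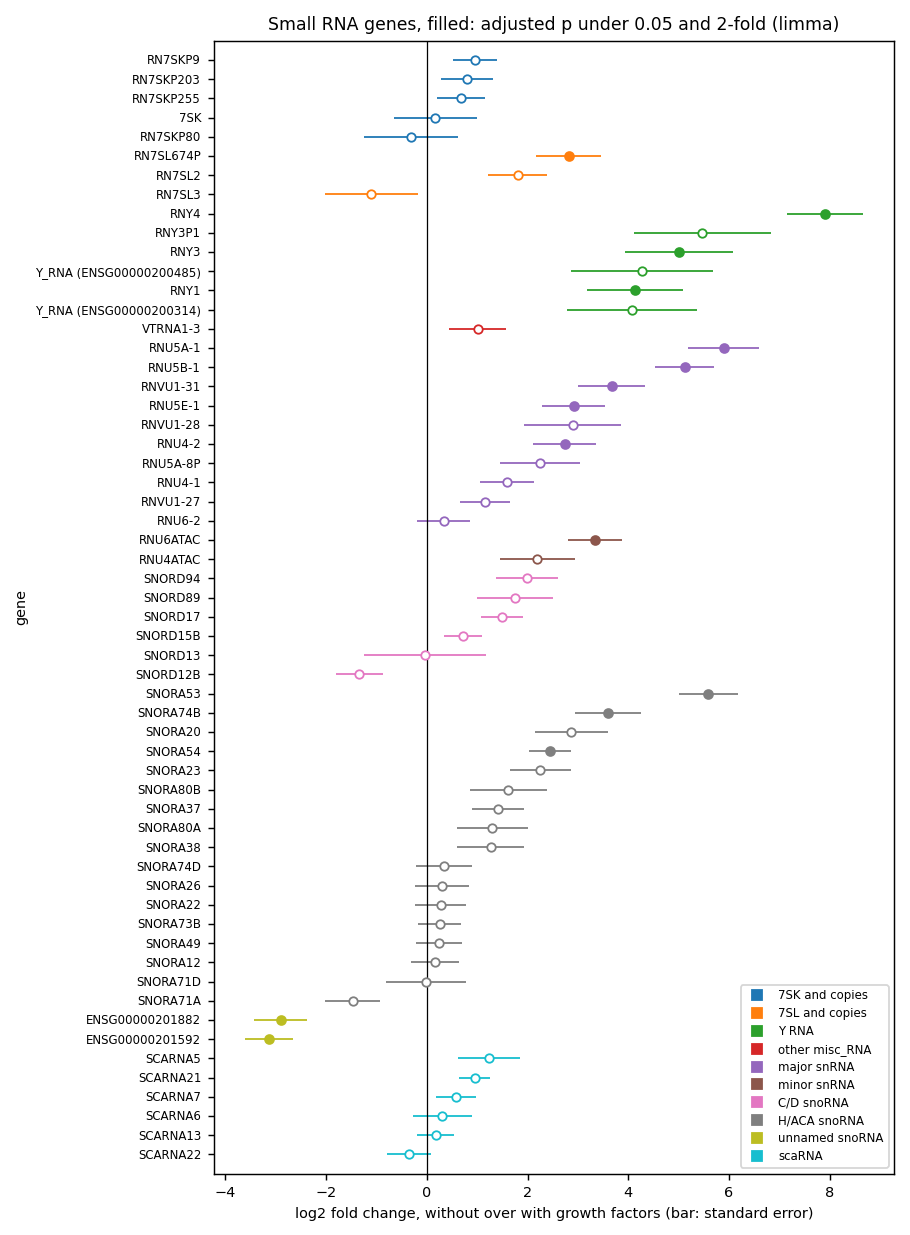
Log2 fold change (without over with growth factors, horizontal axis) of each of the 58 genes, grouped and coloured by class, with bars for the standard error and filled points for genes called by limma. All 6 Y RNA genes and all 10 major snRNA genes lie to the right of 0, with class medians of 4.63 and 2.82, and the 2 unnamed snoRNAs lie to the left.

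U5 pairs with exon ends at both splice sites through a conserved loop. By limma, 3 of its 4 genes in the set were called higher, against 4.36% of all genes tested. RNU5A-1 and RNU5B-1 lie on chromosome 15 and RNU5E-1 on chromosome 1, the last overlapping an exon of a lncRNA on the same strand. RNU5A-1 and RNU5B-1, 8511 bases apart, were 93.97% identical, and RNU5E-1 was 88.33% identical to RNU5A-1, so reads between the copies may have been split in part by the alignment.

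RNU5A-1 had 13.8, 70.3 and 90.5 normalized counts in supplemented replicates 1 to 3 and 4149.9, 1460.2 and 3347 in the depleted ones. RNU5B-1 had 23.8, 62.7 and 116 with and 2941, 1212 and 2169 without. In both genes every depleted sample was over 10 times the highest supplemented one, and the lowest depleted value was that of replicate 2. RNU5A-1 rose from a mean of 58.2 ± 39.8 (SD, n = 3) to 2986 ± 1381 (SD, n = 3), a log2 fold change of 5.89 ± 0.70 (SE) with a limma adjusted p of 0.00268. The log2 fold change of RNU5B-1 was 5.12 ± 0.58 (SE, limma adjusted p 0.00217).

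RNU5E-1 had 46.4, 244 and 201 normalized counts with and 1497, 631 and 1058 without growth factors, a smaller log2 fold change of 2.91 ± 0.63 (SE, limma adjusted p 0.0313). Not divided by length, its normalized counts (gene length 120 bases) were above those of RNU5A-1 (116 bases) in all 3 supplemented samples and below them in all 3 depleted samples. The fourth gene, RNU5A-8P, a U5 copy named as a pseudogene, had 7.5, 76.7 and 16.7 with and 157, 87.2 and 89.4 without, and its log2 fold change of 2.25 ± 0.79 (SE) was not called (limma adjusted p 0.15). Summed over the 4 genes, U5 took 91.5, 453 and 424 normalized counts with and 8746, 3390 and 6663 without growth factors, so the sums did not overlap.

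U4, which escorts U6 into the spliceosome by base pairing, was measured through 2 near-identical genes on chromosome 12 that lie 1194 bases apart. RNU4-1 (chr12:120293097-120293237, minus strand) and RNU4-2 (chr12:120291763-120291903, minus strand) were 97.16% identical, differing from RNU4-1 to RNU4-2 by C37T, G88A, C99A and C113T, counted from 1 at the gene's 5′ end. The capitals mark these 4 positions, because reads can be assigned to one gene or the other only through them.
RNU4-1: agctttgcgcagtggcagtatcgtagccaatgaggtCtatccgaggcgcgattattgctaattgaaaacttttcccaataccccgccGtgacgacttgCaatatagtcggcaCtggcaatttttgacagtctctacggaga
RNU4-2: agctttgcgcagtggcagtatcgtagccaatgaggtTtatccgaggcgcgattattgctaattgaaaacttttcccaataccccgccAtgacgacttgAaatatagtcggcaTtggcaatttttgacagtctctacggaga

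RNU4-2 had 3371, 763 and 835 normalized counts in the supplemented samples and 9859, 4645 and 13847 without. It rose with a log2 fold change of 2.73 ± 0.63 (SE, limma adjusted p 0.0387), a call that was kept only when replicate 1 of the supplemented group was left out and lost on leaving out any other sample, by edgeR (adjusted p 0.067) and by limma without the trend (adjusted p 0.0753). RNU4-1 had 2396, 668 and 756 with and 3421, 1954 and 4993 without, and its groups overlapped through supplemented replicate 1 and depleted replicate 2. Its log2 fold change of 1.59 ± 0.54 (SE) was not called (limma adjusted p 0.136). Because of their identity the values of the single U4 genes are uncertain, and their sum was 5767, 1431 and 1592 with and 13280, 6599 and 18840 without growth factors, which did not overlap.

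U6, the catalytic partner of U4, was represented by RNU6-2 alone. Its normalized counts were 134, 52.1 and 44.3 with and 93.4, 62.3 and 107 without growth factors, and the groups overlapped. The log2 fold change was 0.33 ± 0.53 (SE, limma adjusted p 0.795, 95% interval -0.89 to 1.55), the lowest of the 10 major snRNA genes of the set.

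Of the variant U1 genes, which resemble the U1 snRNA that recognizes the 5′ splice site, 3 were in the set. By limma, 1 was called higher, against 4.36% of all genes tested. RNVU1-31 had 7.5, 8.2 and 3.9 normalized counts with and 200.4, 46.6 and 82.7 without growth factors, and rose with a log2 fold change of 3.67 ± 0.66 (SE, limma adjusted p 0.015). RNVU1-28 (584, 64.4 and 29.5 with, 1199, 451 and 894 without) and RNVU1-27 (33.8, 60.3 and 29.5 with, 108, 59.7 and 109.6 without) overlapped between groups and were not called. RNVU1-31 and RNVU1-28 were 98.17% identical, so the split of reads between them is uncertain. RNVU1-31 (chr1:145465617-145465780, minus strand) is shown with the bases ACTTACCTG, which pair with 5′ splice sites in U1, in capitals.
RNVU1-31: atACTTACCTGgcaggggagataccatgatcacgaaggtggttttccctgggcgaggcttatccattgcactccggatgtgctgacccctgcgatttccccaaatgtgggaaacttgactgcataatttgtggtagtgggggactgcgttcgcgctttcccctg

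In the minor spliceosome, RNU6ATAC had 20.1, 26.9 and 34.4 normalized counts with and 433, 134 and 367 without growth factors. Its groups were far apart for the spread within them, and the gene rose from 27.1 ± 7.19 (SD, n = 3) to 311 ± 157 (SD, n = 3), with a log2 fold change of 3.34 ± 0.54 (SE, limma adjusted p 0.00899). Its partner RNU4ATAC had 7.5, 26.9 and 27.5 with and 162, 35.4 and 109.6 without. The groups of RNU4ATAC did not overlap, but its log2 fold change of 2.20 ± 0.74 (SE) was not called by limma (adjusted p 0.134). RNU6ATAC, on chr9:134164439-134164564 (minus strand), is shown because it had the largest difference of the minor snRNAs.
RNU6ATAC: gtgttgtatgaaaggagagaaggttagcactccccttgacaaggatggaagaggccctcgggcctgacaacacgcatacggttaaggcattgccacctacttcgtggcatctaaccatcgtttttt

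**Figure D2:**
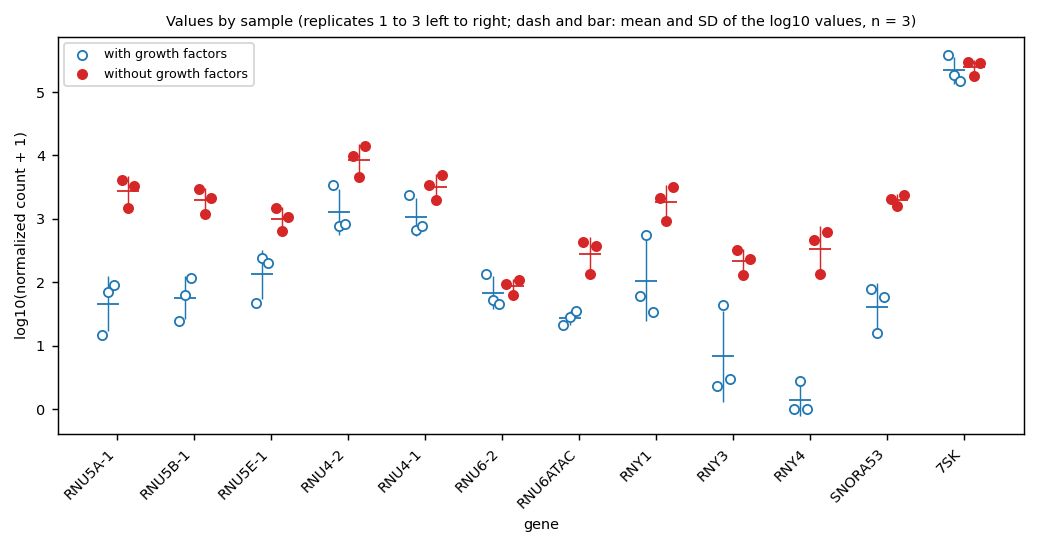
Log10(normalized count + 1) of 12 genes in each sample, with open points for the 3 samples with and filled points for the 3 without growth factors, replicates 1 to 3 from left to right, and dashes with bars for the mean and SD of the log10 values. RNU5A-1, RNU5B-1, RNU6ATAC, RNY4 and SNORA53 show a wide gap between the groups, while RNU4-1, RNU6-2 and 7SK overlap.

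The Y RNA genes had the highest class median, a log2 fold change of 4.63 over 6 genes, 3 of which were called higher by limma, 1 by edgeR and 4 by DESeq2. That median was 3.56 by DESeq2, 3.55 by edgeR and 3.75 with a pseudocount of 10, and it ran from 3.85 without supplemented replicate 1 to 6.19 without supplemented replicate 2. Of all genes tested, limma called 4.36% higher. RNY3, RNY4 and the Y_RNA genes ENSG00000200314 and ENSG00000200485 had means under 50 with growth factors. They entered the set only through the depleted samples, so the rank of the class is a description. RNY1 and RNY3P1 alone reached 50 in both groups. RNY1, RNY3 and RNY4 form a cluster on chromosome 7, with RNY3 3280 bases from RNY1 and 20345 bases from RNY4. RNY1 (chr7:148987136-148987248, minus strand) and RNY4 (chr7:148963315-148963410, plus strand) are shown with the bases TGGTCCGA near their 5′ end in capitals, part of the stem to which Ro60 binds.
RNY1: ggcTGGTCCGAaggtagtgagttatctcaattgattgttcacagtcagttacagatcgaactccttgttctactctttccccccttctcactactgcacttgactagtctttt
RNY4: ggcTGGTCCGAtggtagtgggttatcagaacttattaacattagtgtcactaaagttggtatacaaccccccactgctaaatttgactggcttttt
TGGTCCGA was found on the gene's own strand in 4 of the 6 Y RNA genes of the set and in 2.79% of the 251 genes of the 4 types.

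RNY4 was listed at 0, 1.8 and 0 normalized counts with growth factors, from 3 reads in all, and at 462, 134 and 619 without, from 986 reads. The ratio of the pooled reads, scaled by the size factors, was 378 with an exact 95% counting interval of 129 to 1834, and RNY4 rose by limma (adjusted p 0.00119). Its annotated length of 96 bases was below that of a 100-base read.

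RNY1 had 60.2, 552 and 33.4 normalized counts with and 2121, 937 and 3202 without growth factors. RNY3 had 1.3, 43.4 and 2.0 with and 319, 131 and 228 without. In both genes replicate 2 of the supplemented group stood well above the other two of its group and replicate 2 of the depleted group below the other two of its own. The log2 fold changes were 4.14 ± 0.95 (SE, limma adjusted p 0.0387) for RNY1 and 5.00 ± 1.07 (SE, limma adjusted p 0.0301) for RNY3. Neither gene passed by edgeR, and leaving out 1 sample ended the call of RNY1 in 5 of 6 cases and that of RNY3 in 4 of 6.

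RNY3P1, a copy of RNY3 with 96.08% identity inside an intron of DMGDH, had 1.3, 185 and 13.8 normalized counts with and 1039, 408 and 1261 without growth factors. At the same length of 102 bases it had more normalized counts than RNY3 in all 3 depleted samples, and the assignment of reads between the 2 genes is uncertain. Its log2 fold change of 5.47 ± 1.36 (SE) did not pass (limma adjusted p 0.0522). The 2 genes annotated only as Y_RNA, ENSG00000200314 and ENSG00000200485, had log2 fold changes of 4.08 ± 1.29 (SE) and 4.27 ± 1.41 (SE) and were not called (limma adjusted p 0.112 and 0.127). Summed over the 6 genes, Y RNAs took 62.7, 872 and 65.9 normalized counts with and 4327, 1693 and 5711 without growth factors, and the sums did not overlap.

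7SK held most of the reads of the set, 82.1% of the normalized counts of the 58 genes. The RNA binds LARP7 and HEXIM1 and, through them, P-TEFb. It had 385668, 187038 and 147834 normalized counts in the supplemented samples and 296481, 181899 and 282571 without, and the highest and the lowest values were both in the supplemented group. The means were 240180.0 ± 127512 (SD, n = 3) and 253650.0 ± 62527 (SD, n = 3). The log2 fold change was 0.17 ± 0.83 (SE, limma adjusted p 0.945), and it was -0.12 without replicate 3 of the supplemented group. The 95% interval of the limma estimate ran from -1.72 to 2.06, which includes differences of 2-fold in both directions.

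The identifier measured is ENSG00000202198 at chr6:52995620-52995950 (plus strand), which Gencode now lists beside an overlapping gene named RN7SK. The first 120 bases, at chr6:52995620-52995739, are shown because they hold the region bound by HEXIM1, with the letters GATC in capitals.
7SK: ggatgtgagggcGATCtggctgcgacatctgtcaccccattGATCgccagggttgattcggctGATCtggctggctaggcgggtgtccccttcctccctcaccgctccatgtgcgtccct

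The 4 genes named as 7SK copies, whose reads may come in part from 7SK itself, were also not called. RN7SKP255 (83.69% identical to 7SK) had 272, 220.3 and 170.2 normalized counts with and 559, 170.5 and 434 without growth factors. RN7SKP9 had 60.2, 51.0 and 46.2 with and 142, 68.2 and 109.6 without, the only one of the 5 genes whose groups did not overlap, with a log2 fold change of 0.95 ± 0.44 (SE, limma adjusted p 0.282). RN7SKP80 reached 329.6 in replicate 1 of the supplemented group and 23.6 to 87.2 in the other 5 samples, and its log2 fold change of -0.32 ± 0.93 (SE) was 0.78 without that replicate and 0.15 without replicate 2 of the depleted group. In this class of 5 genes none was called by limma, edgeR or DESeq2, and 0 had an unadjusted limma p under 0.05, against 3400 of all 16988 genes tested.

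Of the 7SL genes, RN7SL2 had 2956, 4062 and 882 normalized counts with and 10293, 4749 and 9208 without growth factors, groups that did not overlap. Its log2 fold change of 1.80 ± 0.58 (SE) did not pass by limma (adjusted p 0.117) but passed by DESeq2. RN7SL3, 96% identical to it and 8636 bases away, had 1005, 659.7 and 74.8 with and 308, 85.2 and 190.1 without, with a log2 fold change of -1.10 ± 0.92 (SE, limma adjusted p 0.583). With copies this alike, the opposite signs of the 2 genes cannot be told apart from a different split of reads. RN7SL674P, a 7SL copy inside an intron of GREB1, had 21.3, 68.5 and 19.7 with and 324, 106 and 319.7 without, and rose with a log2 fold change of 2.82 ± 0.65 (SE, limma adjusted p 0.0401).

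VTRNA1-3, a vault RNA, had 119, 96.7 and 32.5 normalized counts with and 134, 111 and 212 without growth factors. The groups overlapped, and the log2 fold change was 1.01 ± 0.56 (SE, limma adjusted p 0.375).

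**Figure D3:**
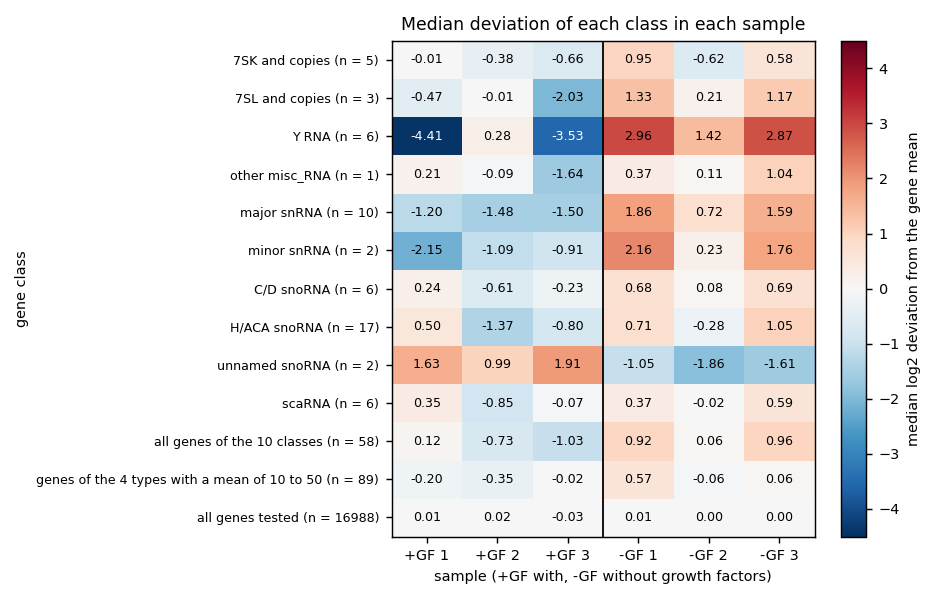
Median log2 deviation from the gene's mean over the 6 samples, for each class (rows) and sample (columns, +GF with and -GF without growth factors), with the value written in each cell. Replicate 2 of the depleted group is the lowest of its group in all 10 classes, at 1.42 for Y RNA and 0.72 for major snRNA, and replicate 2 of the supplemented group is at 0.28 for Y RNA against -4.41 and -3.53 in its replicates 1 and 3.

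The differences were not even across samples. Over the 58 genes the median log2 deviation from the gene's mean was 0.12, -0.73 and -1.03 in replicates 1 to 3 with growth factors and 0.92, 0.06 and 0.96 without, so replicate 1 of the supplemented group lay above replicate 2 of the depleted group. Major snRNAs did not show this crossing, at -1.20, -1.48 and -1.50 with and 1.86, 0.72 and 1.59 without. H/ACA snoRNAs did, at 0.50, -1.37 and -0.80 with and 0.71, -0.28 and 1.05 without. The median deviation of all genes tested was between -0.03 and 0.02 in every sample.

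The H/ACA snoRNAs, 17 genes, had a median log2 fold change of 1.27, or 0.77 for those with a mean of at least 50 in both groups. Limma called 3 higher and 0 lower, against 4.36% and 1.97% of all genes tested, while edgeR called 3 and DESeq2 6. The 3 are shown with the ACA box near their 3′ end in capitals, the element from which the class takes its name. SNORA53 is at chr12:98599635-98599883 (plus strand) in SLC25A3, where it overlaps an annotated exon. SNORA54 is at chr11:2963771-2963893 (minus strand) in an intron of NAP1L4 and SNORA74B at chr5:173020728-173020928 (plus strand) in an intron of ATP6V0E1.
SNORA53: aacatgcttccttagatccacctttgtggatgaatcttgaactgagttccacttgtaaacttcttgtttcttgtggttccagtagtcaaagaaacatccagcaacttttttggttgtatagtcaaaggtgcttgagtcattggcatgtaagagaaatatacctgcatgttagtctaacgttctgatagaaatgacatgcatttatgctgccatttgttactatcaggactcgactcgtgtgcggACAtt
SNORA54: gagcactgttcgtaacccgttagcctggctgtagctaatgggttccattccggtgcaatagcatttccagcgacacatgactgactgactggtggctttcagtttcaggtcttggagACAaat
SNORA74B: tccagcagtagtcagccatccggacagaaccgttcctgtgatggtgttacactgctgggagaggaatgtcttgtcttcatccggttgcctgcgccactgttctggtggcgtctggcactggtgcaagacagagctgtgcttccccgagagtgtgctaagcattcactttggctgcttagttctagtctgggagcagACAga
ACA was found in the last 8 bases of 16 of the 17 genes and of 31.1% of the 251 genes of the 4 types, on the gene's own strand.

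SNORA53 had 76.4, 14.6 and 57.1 normalized counts with and 2092, 1578 and 2397 without growth factors. This was the snoRNA with the largest difference, 49.4 ± 31.6 (SD, n = 3) against 2022 ± 414 (SD, n = 3). Its log2 fold change was 5.59 ± 0.58 (SE, limma adjusted p 0.00157). The normalized counts of its host SLC25A3, a mitochondrial phosphate carrier, were 12839 in replicate 1, 12051 in replicate 2 and 4348 in replicate 3 with growth factors and 6998, 6081 and 7325 without, with a log2 fold change of -0.37 that was not called.

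SNORA74B had 117, 16.4 and 38.4 normalized counts with and 418, 470.1 and 713 without growth factors, and SNORA54 had 206, 94.9 and 137 with and 914, 501 and 959 without. They rose with log2 fold changes of 3.59 ± 0.66 (SE, limma adjusted p 0.0159) and 2.45 ± 0.41 (SE, limma adjusted p 0.0104). The host genes ATP6V0E1 and NAP1L4 had log2 fold changes of 0.55 and 0.07 and were not called. The H/ACA snoRNA with the most normalized counts, SNORA73B in the RCC1 gene, had 15584, 6108 and 9637 with and 14796, 8949 and 11835 without, and its log2 fold change was 0.26 ± 0.43 (SE, limma adjusted p 0.805). SNORA71A, in SNHG17, was one of the 4 genes below in every depleted sample, with 805, 260.1 and 262 with and 170.2, 78.7 and 188 without and a log2 fold change of -1.47 ± 0.55 (SE), which limma did not call (adjusted p 0.172) and DESeq2 did (adjusted p 0.0469).

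Of the 6 C/D snoRNAs none was called by limma or edgeR and 1, SNORD17, by DESeq2, while 4 had an unadjusted limma p under 0.05 (3400 of all 16988 genes tested). SNORD17, in SNX5, had 3862, 1236 and 1788 normalized counts with and 6294, 4938 and 6147 without growth factors, with a log2 fold change of 1.49 ± 0.42 (SE, limma adjusted p 0.0797). SNORD94 and SNORD89 also did not overlap between groups, with log2 fold changes of 1.99 ± 0.61 (SE) and 1.75 ± 0.76 (SE), and SNORD12B, in ZFAS1, was lower in every depleted sample (70.2, 95.5 and 105 with, 24.7, 33.4 and 49.2 without). The gene with the second highest mean, SNORD13, which guides acetylation of 18S ribosomal RNA, had 51.4, 1219 and 2172 with and 785, 284 and 581 without, so its supplemented samples spanned the whole range. The class median of 1.11 was not stable to the level required: with a minimum mean of 20 the class had 13 genes and a median of -0.87.

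The 2 genes called lower were unnamed snoRNAs 171 bases apart in the gene EIF1AX on the X chromosome, a translation initiation factor. ENSG00000201592 (chrX:20136306-20136385, minus strand) is shown with the letters of a C box (TGATGA) and a D box (CTGA), and ENSG00000201882 (chrX:20136066-20136135, minus strand) with the D box letters, which alone were found in its windows.
ENSG00000201592: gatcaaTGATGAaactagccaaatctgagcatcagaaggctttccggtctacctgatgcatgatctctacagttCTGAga
ENSG00000201882: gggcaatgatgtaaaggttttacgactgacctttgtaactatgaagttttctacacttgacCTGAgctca
TGATGA in the first 25 bases was found in 5 of the 6 C/D snoRNAs and in 12% of the 251 genes, and CTGA in the last 20 bases in all 6 and in 23.1%.

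ENSG00000201592 had 179, 179.9 and 362 normalized counts with and 33.9, 18.4 and 24.6 without growth factors, and ENSG00000201882 had 183, 74.4 and 133 with and 22, 12.5 and 13.4 without. No depleted sample reached a supplemented one in either gene. The log2 fold changes were -3.14 ± 0.48 (SE, limma adjusted p 0.00707) and -2.90 ± 0.53 (SE, limma adjusted p 0.0152). The host EIF1AX had 1481, 1699.5 and 695.5 with and 492, 865 and 765 without, with a log2 fold change of -0.81 that was not called (limma adjusted p 0.318). Both genes were shorter than a 100-base read, with annotated lengths of 80 and 70 bases.

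The scaRNAs, 6 genes, had a median log2 fold change of 0.44, which was 0.06 without supplemented replicate 2 and 0.84 without supplemented replicate 1. None was called by limma, edgeR or DESeq2, while 1 had an unadjusted limma p under 0.05 (3400 of all 16988 genes tested). SCARNA7, with the most normalized counts of them, had 6588, 3158 and 6518 normalized counts with and 6609, 6674 and 10205 without growth factors, with a log2 fold change of 0.58 ± 0.39 (SE, limma adjusted p 0.481). SCARNA13 overlapped (2666, 1171 and 1949 with, 2287, 1541 and 2498 without). SCARNA21, in CHD3, had 623, 553 and 824 with and 1484, 944 and 1474 without, groups that did not overlap, and a log2 fold change of 0.95 ± 0.31 (SE, limma adjusted p 0.117). SCARNA5 and SCARNA6 lie in the same host gene, ATG16L1, and had log2 fold changes of 1.24 ± 0.62 (SE) and 0.31 ± 0.58 (SE).

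Host genes were compared with the small RNAs inside them, since a snoRNA or scaRNA in an intron is transcribed with its host. Of the 58 genes, 39 lay inside another gene on the same strand, and for 33 of them the host was tested, which made 30 host genes. Limma called 0 of these 30 higher and 1 lower, against 4.36% and 1.97% of all genes tested. The host called lower was CRYBG1, which holds the Y_RNA gene ENSG00000200314, while DESeq2 called 2 hosts. The median log2 fold change of the hosts was -0.37, and in 28 of 33 pairs the small RNA had a larger log2 fold change than its host. That count is a description, since the small RNAs, but not the hosts, were chosen by a mean that includes the depleted samples. The pairs also include RN7SKP9, RN7SL674P, RNY3P1 and ENSG00000200314, which are neither snoRNA nor scaRNA genes. Across the 33 pairs Spearman's rho between the 2 log2 fold changes was 0.05 and Pearson's r 0.04, as a description of pairs that share libraries. In 12 of the 58 genes the small RNA overlapped an exon of another gene on the same strand, so that part of its reads may belong to that transcript.

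**Figure D4:**
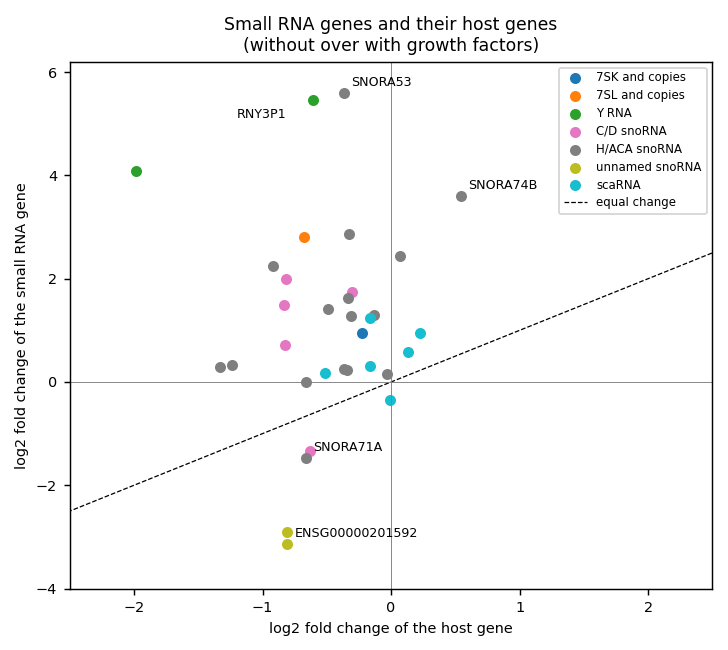
Log2 fold change (without over with growth factors) of 33 small RNA genes on the vertical axis against that of their host gene on the horizontal axis, coloured by class, with a dashed line where both are equal. Hosts lie between -1.99 and 0.55, and 28 of the 33 points are above the dashed line.

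The 19 genes with no host on their strand had a median log2 fold change of 2.73 with 8 called higher and 0 lower by limma, and the 39 inside a host a median of 1.01 with 5 called higher and 2 lower. Of all genes tested, 4.36% were called higher and 1.97% lower. The called genes with means under 50 with growth factors were RNY3, RNY4, RNVU1-31 and RNU6ATAC without a host, and RN7SL674P and SNORA53 inside one. The split by host follows the classes, since 30 of the 31 snoRNA and scaRNA genes lie in hosts, and all major snRNA genes but RNU5E-1 do not. The bases before the start were searched in hg38 for promoter letters on both strands. ATTTGCAT or its reverse complement ATGCAAAT, the octamer bound by POU2F1, was found in the 250 bases before 8 of the 27 snRNA and misc_RNA genes (29.6%), before 3 of the 31 snoRNA and scaRNA genes (9.68%) and before 1.43% of 18889 genes of the table. The 8 included all 4 U5 genes, RNU4-2, RNU4ATAC, RNY3 and the Y_RNA gene ENSG00000200314. The sites of 5 of these genes are shown as 30 bases with the octamer in capitals, read on the strand of the gene.
RNU5A-1 at chr15:65295837-65295866: attcaggtctcATTTGCATacccataatac
RNU5B-1 at chr15:65304454-65304483: ttgatccgattATTTGCATacccataatgc
RNU5E-1 at chr1:11907921-11907950: ggtgagactttATTTGCATacccacaatgc
RNU5A-8P at chr1:210374460-210374489: ctcaacatctcATTTGCATacccatagtac
RNU4-2 at chr12:120292114-120292143: acgtcacgttgATTTGCATaagattcccca
The octamer began 203 to 229 bases before the gene in these 5. TATAA or TATAT between 40 and 15 bases before the start was found on the gene's strand for 7SK, RNY3, RNY4 and RNVU1-31, 4 of 27, against 3.35% of all genes. No match says only that these letters are not in the window.

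The differences varied weakly with length and base composition, and length followed class. All Y RNA, U5 and minor snRNA genes of the set were under 130 bases. The shortest genes, 23 of under 130 bases, had a median log2 fold change of 2.25. It was 1.27 for the 19 of 130 to under 200 bases and 0.74 for the 16 of 200 bases or more. In these 3 groups 8, 2 and 3 genes were called higher by limma, against 4.36% of all genes tested. Over the 58 genes Spearman's rho of the log2 fold change was -0.18 with annotated length, -0.31 with GC content and 0.08 with the mean level, as descriptions of genes that share libraries and families. Other short genes differed among themselves: of those of at most 350 bases, 9 mitochondrial tRNA genes had a median of 3.04 with none called by limma, 18 microRNA genes 0.34, 181 processed pseudogenes -0.14 and 16 lncRNAs -0.39, and 60 protein-coding genes of 350 to 700 bases had a median of 0.58. When each sample was corrected for length and GC content by a smooth fit over other genes, 13 of the 15 called genes were still called, the exceptions being RNU5E-1 and ENSG00000201882. That fit rested on 117 genes of at most 350 bases, the shortest of 80.

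**Figure D5:**
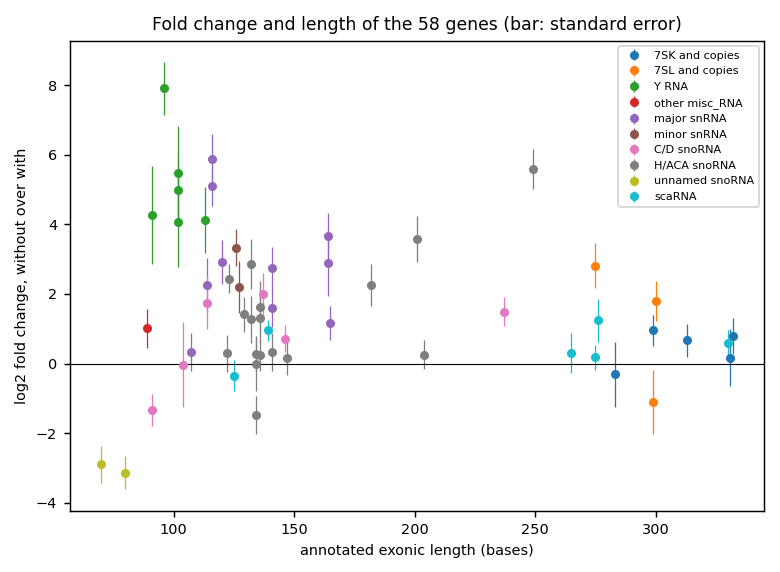
Log2 fold change (without over with growth factors, vertical axis, bars for the standard error) of the 58 genes against annotated exonic length in bases, coloured by class. Genes of under 130 bases include both the highest value, 7.91 for RNY4, and the lowest, -3.14 for ENSG00000201592.

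The proteins that make and bind these RNAs were read from 8 lists, of which 115 genes were tested. None was called by limma or edgeR, 3 were called by DESeq2, and 11 of the 115 had an unadjusted limma p under 0.05, against 3400 of all 16988 genes tested. The median log2 fold change was -0.18 over the 115 genes, -0.06 for the 22 genes of the 7SK particle and P-TEFb, -0.23 for 28 genes of snRNA transcription and processing, -0.01 for 13 RNA polymerase III genes, -0.33 for 10 C/D and -0.09 for 6 H/ACA snoRNP genes, -0.28 for 15 Cajal body and import genes, -0.18 for 15 Sm and snRNP genes and -0.11 for 7 genes of the 7SL and Ro particles.

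The 3 genes called by DESeq2 were all lower without growth factors. HNRNPA2B1 and HNRNPA1, hnRNP proteins that take up 7SK when it releases P-TEFb, had log2 fold changes of -1.08 ± 0.30 (SE, limma adjusted p 0.0782) and -1.04 ± 0.29 (SE, limma adjusted p 0.0788). POLR3G, a subunit of RNA polymerase III, had 159, 320.5 and 77.7 normalized counts with and 49.4, 46.6 and 22.4 without growth factors, with a log2 fold change of -2.06 ± 0.60 (SE, limma adjusted p 0.0894). In all 3 the groups did not overlap. Without replicate 3 of the supplemented group limma called 9 of the 115, namely these 3, FBL, NOP58, SNRPE, INTS2, INTS10 and INTS13. The share of all genes called without that sample is not given here. It was 6.33% in the full fit, which is a different fit, so whether the 9 are an excess cannot be said.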

How the data were processed

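Total RNA of 6 MCF10A samples was sequenced by the study (stranded, ribosomal RNA-depleted, single-end 100-base reads). Per the labels and the methods of the study, reads were trimmed with cutadapt 1.6, aligned with TopHat2 to hg38, counted with HTSeq 0.6 on Gencode 22 and divided by DESeq2 1.8.1 size factors. The deposited values are such a normalized signal per gene, not divided by length, and the strand setting and the handling of reads with several alignments are not given in the sources used here. All values (100%, within 0.001 reads) were whole multiples of 1 read, so whole reads were recovered.

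Identifiers were matched to Gencode 44 (18913 of 19198). The genes, the lists and the tests were chosen with earlier results of these data known. The fit was limma 3.58.1 with an intensity trend (R 4.3.3) on log2(normalized count + 1), over 16988 genes with a mean of at least 10. Fold changes of low genes depended on the tool in both directions. The log2 fold change of RNY4 was 7.91 by limma, 8.83 by edgeR and 9.02 by DESeq2. That of RNY3 was 5.00 by limma, 3.83 by edgeR and 3.85 by DESeq2. A call needs a Benjamini-Hochberg adjusted p under 0.05 and 2-fold. edgeR 4.0.16 and DESeq2 1.42.0 on the recovered reads were alternatives. With 3 samples a group, an exact permutation test of one gene cannot go below p = 0.1. Named were 7SK, the 3 most abundant genes of each class, all called genes, the 2 largest rises and the 2 largest falls per class among genes whose groups do not overlap, their hosts, and others where a result turned on them, chosen after their values were seen. The scripts were tested on simulated data. Same-numbered samples correlated at -0.07, -0.28 and -0.32 in their deviations, so the replicate numbers were not taken to pair samples. The sequences of some of the genes are not reported here.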

Additional observations from a re-analysis of the deposited data

How the results depend on the processing

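The 15 calls became 22 by DESeq2 (19 higher, 3 lower), 12 by edgeR (10 higher, 2 lower), 10 without the intensity trend and 17 with the replicate block, 14 of the 15 among them (RN7SL674P was lost). No sample correlated best with its own number, so the replicate block rests on a shared number only. The number of calls was 5 to 18 with 1 sample left out, and 7 with a mean of at least 50 required in both groups. The share of all genes called is given here for the main fit only (6.33%). Calls by the other fits therefore cannot be compared with the share of all genes. The log2 fold change of 7SK was -0.12 to 0.58 with 1 sample left out. Class medians moved for 7SL genes to 0.38 with a minimum mean of 20, 0.35 with a mean of 50 in both groups and 0.86 without exon overlaps, and ranged from 1.15 to 2.25 with 1 sample left out. For major snRNAs the median was 2.23 by DESeq2, 2.26 by edgeR and 2.25 to 3.21 with 1 sample left out, for C/D snoRNAs it was -0.87 with a minimum mean of 20, and for the unnamed snoRNAs -2.57 with a pseudocount of 10. Of the protein genes, 3 were called by DESeq2, 1 (INTS1) after the length and GC correction and 0 to 9 with 1 sample left out. Signs also turned in genes other than 7SK: leaving out 1 sample gave log2 fold changes of -0.10 to 1.05 for SCARNA6 (-0.036 by edgeR, -0.063 by DESeq2), -1.09 to 0.78 for RN7SKP80, -1.68 to 1.004 for SNORD13, -0.077 to 0.60 for SNORA73B and -0.14 to 0.45 for SCARNA13, and for SNORD13 it was 0.017 and 0.023 when the totals of all genes or of all genes outside the set were made equal. The cause of these shifts was not tested. Replicate 3 without growth factors had the fewest reads, 7472418, and 1 read there was worth 2.24 normalized counts, which limits genes of a few counts.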

Other observations

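The 9 mitochondrial tRNA genes tested, also short RNAs, had a median log2 fold change of 3.04, with 8 of 9 above 0. Their summed normalized counts were 110.3, 119.5 and 255 in replicates 1 to 3 with growth factors and 95.2, 6812 and 3792 without, so replicate 1 of the depleted group lay below all supplemented samples, and 0 of the 9 were called by limma. The 2 mitochondrial ribosomal RNAs summed to 18737, 18085 and 193309 with and 74599, 52681 and 51418 without growth factors, with replicate 3 of the supplemented group the highest sample and its replicates 1 and 2 the lowest.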
